A study of Mus musculus with 6 samples.

Results

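The genes described here are 10 genes of the p53 pathway and its linked cell-cycle inhibitors, namely the regulators *Trp53* and *Mdm2*, the cyclin-dependent kinase (CDK) inhibitor genes *Cdkn1a*, *Cdkn2a* and *Cdkn2b*, the pocket protein gene *Rb1*, and the p53 target genes *Ccng1*, *Sesn1*, *Trp53inp1* and *Gdf15*. They were chosen by gene symbol, each symbol matched 1 row, and together they are 10 of the 54532 mouse genes counted by RNA-seq. All 10 were among the 15307 genes that passed the filter on low counts. Of these, 9 reached the filter's level of 0.358 CPM (read counts scaled to library size) in every library, whereas *Gdf15* reached it in the 3 Ctrl shRNA libraries and in 1 knockdown library. MLE12 cells were compared between a Ctrl shRNA group (n = 3), which the labels describe both as empty lentiviral vectors and as a control shRNA lentivirus, and an Idh3α shRNA + Slc25a1 shRNA group (n = 3), called knockdown here. *Idh3a* encodes a subunit of the mitochondrial enzyme isocitrate dehydrogenase 3 and *Slc25a1* the carrier that moves citrate out of mitochondria, and the pair of shRNAs was the study's model of citrate accumulation in mitochondria. The labels give a multiplicity of infection of 50 for each lentivirus, so that the knockdown cells met 2 viruses, and they do not say whether the control cells received a matching second dose. If the control cells received no such dose, effects of viral load cannot be told apart from those of the shRNAs. Culture went on for 80 h after a medium change at 16 h.

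p53, the product of *Trp53*, is a transcription factor that is held at low levels by the ubiquitin ligase MDM2, and *Mdm2* is itself a p53 target. When p53 is released from MDM2, it raises genes of cell-cycle arrest such as *Cdkn1a*, which encodes the CDK inhibitor p21. The *Cdkn2a* locus encodes p16INK4a, an inhibitor of the cyclin D kinases CDK4 and CDK6, and from a separate first exon p19ARF, which binds MDM2, while RB1 holds E2F transcription factors inactive until CDKs phosphorylate it. MLE12 is a mouse lung epithelial line from tumors of mice in which the surfactant protein C promoter drove the simian virus 40 large T antigen. Large T antigen binds p53 and the pocket proteins, and both groups share this background. The level of large T antigen and the activity of the p53 protein were not analysed here, so the values below are mRNA levels only. The labels state the strain of the cells as C57BL/6J, and all 6 libraries come from the 1 line.

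The total count per library was 27273502 to 28535653 in Ctrl shRNA and 27715153 to 28112519 in the knockdown. Ctrl shRNA replicate 2 stood apart from the other 5 libraries. It had 16681 genes detected against 19902 to 23147, a mitochondrial share of 6.49% against 1.57% to 1.80%, and 27.2% of counts in its 100 most abundant genes against 12.6% to 12.9%. Its scaling factor by the trimmed mean of M-values (TMM), which enters all CPM values here, was 0.711 against 1.05 to 1.09. It also lay outside the range of the other 2 control libraries for 9 of the 10 genes, the exception being *Cdkn2b*, so the change of each of the 10 genes is given with and without it. As a check of the labels, *Slc25a1* was 103, 98.7 and 108 CPM in Ctrl shRNA and 68.9, 69.6 and 63.0 in the knockdown, and *Idh3a* was 79.8, 136.5 and 93.0 CPM against 58.5, 57.9 and 55.5, so both were lower in all 3 knockdown libraries. Of 10 alveolar epithelial markers 7 passed the count filter, and the summed level of all 10 was 837 to 898 CPM in Ctrl shRNA and 784 to 837 in the knockdown. Among them *Nkx2-1*, the lung epithelial transcription factor, stood at 324 to 343 CPM in Ctrl shRNA and 277 to 302 in the knockdown (log2 fold change -0.20, not past the threshold of edgeR but called lower by limma-voom with sample quality weights), and *Sftpc*, the gene of surfactant protein C, at 44.1 to 97.3 in Ctrl shRNA and 27.2 to 35.9 in the knockdown (log2 fold change -1.07, edgeR adjusted p = 0.315, and -0.65 without Ctrl shRNA replicate 2, edgeR adjusted p = 0.0438), while *Sftpd* was at 0 in every library. The other tested markers of the list did not pass in edgeR, DESeq2 or limma-voom, at log2 fold changes of 0.14 for *Cdh1*, 0.14 for *Sftpb*, 0.06 for *Abca3*, -0.01 for *Krt8* and -0.40 for *Epcam*. Of the immune markers *Ptprc* and *Adgre1* were at 0 in every library, and 1 of the 5 was tested. The summed level of all 5 was 1.92 to 2.48 CPM in Ctrl shRNA and 2.51 to 3.06 in the knockdown. The sum of all 6 fibroblast markers (3 tested, *Col3a1* at 0) was 346 to 1233 CPM in Ctrl shRNA and 317 to 345 in the knockdown. Its highest value was in Ctrl shRNA replicate 2, where *Dcn* alone was 1211. *Pdgfra*, another of the list, was at 2.23 to 2.68 CPM in Ctrl shRNA and 3.43 to 3.91 in the knockdown (log2 fold change 0.63, or 0.57 without replicate 2), and *Col1a1* was at 19.7 to 22.7 against 16.5 to 22.8 CPM, neither past the threshold of edgeR, although limma-voom with sample quality weights called *Pdgfra* higher. The sum of all 4 endothelial markers (2 tested) was 36.7 to 45.8 against 31.9 to 33.3 CPM. The part of other cell types or of RNA quality in the results below was not tested.

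The promoters of the genes that form the regulatory loop are shown because the p53 protein acts on its targets through a repeated 10-base half-site and because *Cdkn2a* is read from separate starts. RefSeq gave 250 bases before the start for 8 of the 10 genes, in 12 windows, and none was listed for *Rb1* and *Trp53inp1*. Sequences are from RefSeq (GRCm38.p6), 5′ to 3′ on the strand of the gene, and capitals mark a match to the p53 half-site, searched by its consensus on both strands, or to an E2F core (TTTCCCGC, TTTCGCGC, TTTGCCGC or TTTGGCGC, both strands).
*Trp53*, chr11:69580109-69580358, plus strand: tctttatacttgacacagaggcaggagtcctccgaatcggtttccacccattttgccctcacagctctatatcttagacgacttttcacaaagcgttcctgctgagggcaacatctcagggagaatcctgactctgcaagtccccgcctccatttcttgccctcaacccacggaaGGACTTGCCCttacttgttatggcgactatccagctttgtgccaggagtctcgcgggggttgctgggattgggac
*Mdm2*, chr10:117710759-117711008, minus strand: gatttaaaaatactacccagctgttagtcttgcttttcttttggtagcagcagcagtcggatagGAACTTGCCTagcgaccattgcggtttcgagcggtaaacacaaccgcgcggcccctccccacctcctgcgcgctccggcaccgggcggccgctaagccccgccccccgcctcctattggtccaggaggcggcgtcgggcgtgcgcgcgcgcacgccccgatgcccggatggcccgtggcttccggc
*Cdkn1a*, the upstream of its listed starts, chr17:29090729-29090978, plus strand: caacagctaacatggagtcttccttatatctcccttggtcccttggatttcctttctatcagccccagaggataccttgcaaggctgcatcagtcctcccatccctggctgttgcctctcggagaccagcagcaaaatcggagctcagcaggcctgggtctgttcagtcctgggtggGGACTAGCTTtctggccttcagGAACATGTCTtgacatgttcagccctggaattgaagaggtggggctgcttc
*Ccng1*, chr11:40755287-40755536, minus strand: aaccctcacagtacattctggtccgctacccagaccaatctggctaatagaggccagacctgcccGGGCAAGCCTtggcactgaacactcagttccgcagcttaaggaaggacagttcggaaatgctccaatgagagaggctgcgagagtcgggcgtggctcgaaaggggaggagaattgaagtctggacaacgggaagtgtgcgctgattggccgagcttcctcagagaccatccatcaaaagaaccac
*Cdkn2a*, downstream start, chr4:89282193-89282442, minus strand: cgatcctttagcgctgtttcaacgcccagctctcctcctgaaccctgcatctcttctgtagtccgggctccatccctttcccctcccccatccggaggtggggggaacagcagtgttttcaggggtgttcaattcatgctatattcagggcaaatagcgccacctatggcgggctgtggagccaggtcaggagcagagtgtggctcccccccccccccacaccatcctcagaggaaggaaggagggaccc
*Cdkn2a*, upstream start, chr4:89294620-89294869, minus strand: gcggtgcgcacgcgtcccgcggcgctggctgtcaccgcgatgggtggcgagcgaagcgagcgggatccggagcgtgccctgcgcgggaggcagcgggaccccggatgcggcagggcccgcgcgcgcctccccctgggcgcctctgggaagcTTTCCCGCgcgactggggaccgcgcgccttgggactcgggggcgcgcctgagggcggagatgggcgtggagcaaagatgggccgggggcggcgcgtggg
A p53 half-site lay 65 bases before the start of *Trp53*, 176 before *Mdm2* and 175 before *Ccng1*, and the upstream window of *Cdkn1a* held a pair of them, 63 and 41 bases before the start. In 1 of the windows of *Sesn1* there was a match 163 bases before the start. Of all 32851 promoter windows of the same length, 7.13% held such a match. The E2F core TTTCCCGC lay 91 bases before the upstream start of *Cdkn2a*, and 1.86% of all windows held an E2F core. No window of *Cdkn2b* or *Gdf15* held either motif. The matches describe letters only, and no measurement of binding was made here.

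In Ctrl shRNA cells the inhibitor genes of the *Cdkn2a* and *Cdkn2b* locus were the most abundant of the 10 per length of gene and *Cdkn1a* was among the least. Levels are compared between genes as CPM per kilobase (kb) of the deposited gene length. *Cdkn2a* stood at 406.5 ± 72.1 CPM per kb (SD, n = 3), at percentile 99.1 of the genes tested, and *Cdkn2b* at 60.3 ± 3.11, at percentile 93.3. *Trp53* followed at 35.3 ± 2.97 CPM per kb and *Ccng1* at 23.6 ± 2.27. *Mdm2* (13.4 ± 1.36) and *Sesn1* (13.2 ± 1.80) were not apart beyond their spread. *Rb1* stood at 8.86 ± 0.172 CPM per kb and *Trp53inp1* at 7.46 ± 0.187. *Cdkn1a* was at 4.32 ± 0.902 CPM per kb, percentile 44.9, and *Gdf15* was lowest at 0.530 ± 0.186, percentile 15.4. Without Ctrl shRNA replicate 2 *Cdkn2a* stood at 375 ± 66.3 CPM per kb and the 10 genes had the same order. In the knockdown the order changed in 1 place, since *Trp53* at 52.4 ± 6.15 CPM per kb had a higher mean than *Cdkn2b* at 47.9 ± 4.58, values whose spreads overlap. The plot of levels in each library shows the same genes on the CPM scale.

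**Figure D1:**
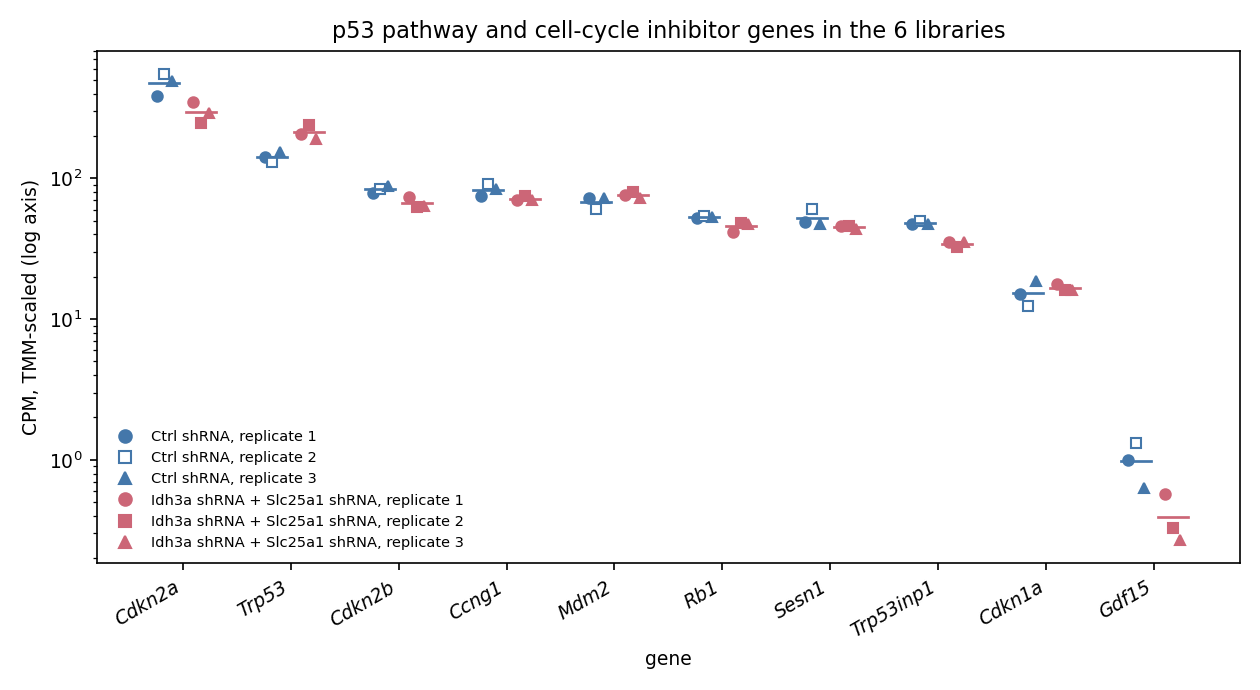
Level of each of the 10 genes in the 6 libraries, in TMM-scaled CPM on a log axis (blue, Ctrl shRNA, with replicate 2 as an open square; red, Idh3α shRNA + Slc25a1 shRNA; horizontal lines, group means of 3). *Cdkn2a* spans 384 to 550.5 in Ctrl shRNA and 248 to 348 in the knockdown, *Trp53* spans 131 to 155 and 190 to 239, and the points of *Cdkn1a* overlap between the groups.

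With all 6 libraries, no member passed an adjusted p of 0.05 in the quasi-likelihood test of edgeR (p adjusted by the Benjamini-Hochberg method across the whole table), where 10 genes (0.0653%) passed. *Gdf15* entered the table of tested genes through the Ctrl shRNA libraries, where it is higher, so it is left out of the next counts. At an unadjusted p under 0.05, 5 of the other 9 passed (*Trp53* higher, and *Cdkn2a*, *Cdkn2b*, *Rb1* and *Trp53inp1* lower), beside 14.1% of all genes. The CPM values of the groups did not overlap for 7 of the 9 (all but *Cdkn1a* and *Ccng1*), beside 25.4% of all genes. Once Ctrl shRNA replicate 2 was left out, 2 of the 10 passed the adjusted threshold, *Trp53* higher and *Trp53inp1* lower, beside 1.79% of all genes, and DESeq2 with all 6 libraries called the same 2 genes beside 2.51% of those it gave an adjusted p. DESeq2 without that library called *Cdkn2b* as lower in addition, 3 of the 9 genes with an adjusted p (all but *Gdf15*), beside 6.58%. With limma-voom, in which sample quality weights lowered the weight of that library to 0.101, 6 of the 10 passed, *Trp53* higher and *Cdkn2a*, *Cdkn2b*, *Rb1*, *Ccng1* and *Trp53inp1* lower, beside 15.0% of all genes. The common biological coefficient of variation was 0.263 with all 6 libraries and 0.102 without Ctrl shRNA replicate 2. The log2 fold change (knockdown over Ctrl shRNA) was positive for 3 of the 10 genes, *Gdf15* included, with a median of -0.22 beside -0.01 over all genes tested, and without replicate 2 it was positive for 2, with a median of -0.19 beside -0.01. The labels do not say that the replicates came from separate cultures, so p-values measure the spread between these samples, and in bulk RNA fewer cells with a transcript and less of it per cell cannot be told apart. An exact two-sided permutation test of 3 against 3 cannot go below 0.1, the value it gave for 7 of the 9 genes other than *Gdf15* (all but *Cdkn1a* and *Ccng1*).

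**Figure D2:**
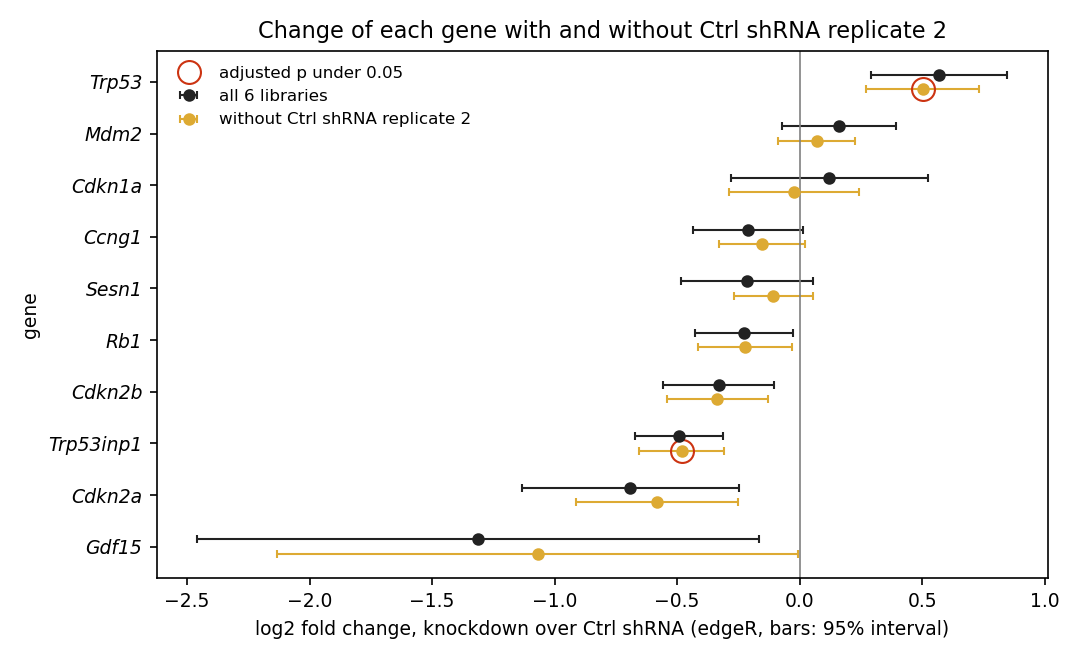
Log2 fold change of each gene, knockdown over Ctrl shRNA, by edgeR with all 6 libraries (black) and without Ctrl shRNA replicate 2 (yellow), with 95% intervals as bars and red circles around values with an adjusted p under 0.05. *Trp53* (0.50) and *Trp53inp1* (-0.48) are circled without replicate 2, and the intervals of *Mdm2*, *Cdkn1a*, *Ccng1* and *Sesn1* reach across 0 in both fits.

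*Trp53* was the member with the highest log2 fold change. The gene (chr11:69580359-69591873, plus strand, GRCm38) stood at 142, 131 and 155 CPM in Ctrl shRNA (143 ± 12.01, SD, n = 3) and at 207, 239 and 190.0 CPM in the knockdown (212 ± 24.9). Every knockdown library was above every control library. This was a log2 fold change of 0.57 (SE 0.12, 95% interval 0.29 to 0.85), a 1.48-fold difference, at an adjusted p of 0.211 by edgeR with Benjamini-Hochberg adjustment. When Ctrl shRNA replicate 2, its lowest control library, was left out, *Trp53* rose by 0.50 on the log2 scale (interval 0.27 to 0.73), at an adjusted p of 0.0497 in the same edgeR test, just under the threshold. The adjusted p of DESeq2 with all 6 libraries was 0.0159. *Wrap53* lies on the opposite strand next to *Trp53* without overlapping it, and its log2 fold change was 0.11.

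*Mdm2*, the inhibitor and target of p53 (chr10:117688875-117710758, minus strand), stood at 72.4, 60.3 and 72.1 CPM in Ctrl shRNA (68.3 ± 6.89) and 76.5, 79.8 and 72.8 CPM in the knockdown (76.4 ± 3.52). The lowest knockdown library was just above the highest control library. Its log2 fold change was 0.16 (SE 0.10, 95% interval -0.07 to 0.39), with an adjusted p of 0.422 by edgeR with Benjamini-Hochberg adjustment. Leaving out Ctrl shRNA replicate 2, the lowest of the 6, brought it to 0.07 (interval -0.09 to 0.23, edgeR adjusted p = 0.608). A difference in *Mdm2* larger than these intervals was not seen, and the test does not show that the groups were alike.

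None of the 3 CDK inhibitor genes passed the adjusted threshold of edgeR in either fit. *Cdkn1a* (chr17:29090976-29100727, plus strand) stood at 15.0, 12.3 and 18.7 CPM in Ctrl shRNA (15.3 ± 3.21) and at 17.7, 16.2 and 16.2 CPM in the knockdown (16.7 ± 0.910). All 3 knockdown libraries lay inside the range of the controls. *Cdkn1a* had a log2 fold change of 0.12 (SE 0.17, 95% interval -0.28 to 0.52, edgeR adjusted p = 0.728), which was -0.02 without Ctrl shRNA replicate 2 (interval -0.29 to 0.24, edgeR adjusted p = 0.933), so its sign rests on that library. The exact permutation test gave p = 0.5. The genes with the pattern over the 6 libraries most like that of *Cdkn1a*, among 11165 genes with a mean count of at least 100, were *Arl6ip4* (Pearson r = 0.992 of log2 CPM), *Phgdh* (0.989), *Nuak2* (0.986), *Tmem38a* (0.985) and *Eif1ad* (0.982). All 6 points of each correlation share their library and its scaling, Ctrl shRNA replicate 2 included.

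*Cdkn2a* (chr4:89274471-89294653, minus strand) stood at 384, 550.5 and 494 CPM in Ctrl shRNA (476 ± 84.5) and at 348, 248 and 289.5 CPM in the knockdown (295 ± 50.4). The groups did not overlap, although the lowest control and the highest knockdown library were close. *Cdkn2a* had a log2 fold change of -0.69 (SE 0.18, 95% interval -1.13 to -0.25), and an adjusted p of 0.288 by edgeR with Benjamini-Hochberg adjustment and of 0.0516 by DESeq2. The value without Ctrl shRNA replicate 2 was -0.58 (interval -0.91 to -0.25, edgeR adjusted p = 0.0919). A gene count holds the reads of both products of the locus, p16INK4a and p19ARF, which share exons and start at the separate promoters printed above, so neither is known separately.

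*Cdkn2b*, the gene of the CDK4 and CDK6 inhibitor p15INK4b, is the upstream neighbor of *Cdkn2a* (chr4:89306299-89311039, minus strand, 11645 bases apart). It stood at 79.2, 84.4 and 87.8 CPM in Ctrl shRNA (83.8 ± 4.32) and 73.9, 62.3 and 63.6 CPM in the knockdown (66.6 ± 6.37), without overlap. In the fit of all 6 libraries its log2 fold change was -0.33 (SE 0.09, 95% interval -0.56 to -0.11, edgeR adjusted p = 0.310) and -0.34 without Ctrl shRNA replicate 2 (edgeR adjusted p = 0.109). Both genes of the locus thus had lower values in every knockdown library, and neither passed the adjusted threshold of edgeR in either fit.

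*Rb1*, the retinoblastoma gene (chr14:73183673-73325822, minus strand), stood at 52.2, 54.2 and 53.5 CPM in Ctrl shRNA (53.3 ± 1.04) and 41.5, 47.9 and 47.3 CPM in the knockdown (45.6 ± 3.56). The groups did not overlap. The log2 fold change was -0.23 (SE 0.08, 95% interval -0.43 to -0.03, edgeR adjusted p = 0.347) and -0.22 without Ctrl shRNA replicate 2 (edgeR adjusted p = 0.201). Its value is uncertain because opposite-strand genes share exonic bases with it, 408 of its 6015 with *Lpar6* and 488 with *Rcbtb2*, and the use of strand in the counting is not stated in the sources used here.

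Among the 4 further p53 target genes, *Trp53inp1* fell once Ctrl shRNA replicate 2 was left out, and the other 3 had lower mean values that did not pass the threshold of edgeR in either fit. *Trp53inp1*, the gene of tumor protein p53 inducible nuclear protein 1, which takes part in p53-linked stress responses and autophagy (chr4:11156431-11174379, plus strand), stood at 47.5, 49.7 and 47.7 CPM in Ctrl shRNA (48.3 ± 1.21) and 35.2, 32.4 and 35.3 CPM in the knockdown (34.3 ± 1.64). The gap between the groups was larger than the range inside either. The log2 fold change was -0.49 (SE 0.07, 95% interval -0.67 to -0.31), and by edgeR with Benjamini-Hochberg adjustment the adjusted p was 0.144 with all 6 libraries. Without Ctrl shRNA replicate 2 *Trp53inp1* fell by 0.48 on the log2 scale (interval -0.66 to -0.31, edgeR adjusted p = 0.0223), and the adjusted p of DESeq2 with all 6 was 0.000348. Its direction was thus opposite to that of *Trp53*.

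*Ccng1*, which encodes cyclin G1 (chr11:40748552-40755311, minus strand), stood at 74.8, 90.7 and 83.6 CPM in Ctrl shRNA and 70.1, 75.4 and 69.6 CPM in the knockdown (83.0 ± 7.98 against 71.7 ± 3.21), with 1 knockdown library above the lowest control. Its log2 fold change was -0.21 (SE 0.09, 95% interval -0.44 to 0.01, edgeR adjusted p = 0.357) and -0.15 without Ctrl shRNA replicate 2 (edgeR adjusted p = 0.303). *Sesn1*, the gene of sestrin 1, an inhibitor of mTORC1 signaling (chr10:41809935-41908424, plus strand), stood at 48.8, 60.6 and 47.7 CPM in Ctrl shRNA and 46.2, 45.7 and 43.5 CPM in the knockdown (52.4 ± 7.18 against 45.1 ± 1.44). The groups were separate, with replicate 2 the highest control. The log2 fold change of -0.22 (SE 0.11, 95% interval -0.48 to 0.05, edgeR adjusted p = 0.384) moved to -0.11 when replicate 2 was left out (edgeR adjusted p = 0.433).

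*Gdf15*, the gene of a secreted stress cytokine of the TGF-β family (chr8:70629393-70632456, minus strand), was close to the limit of detection. Because it passed the count filter through the Ctrl shRNA libraries, its inclusion favours a lower value in the knockdown, and its values are a description. It had 31, 26 and 18 counts in Ctrl shRNA and 17, 10 and 8 in the knockdown, or 1.00, 1.32 and 0.628 CPM against 0.571, 0.330 and 0.270 CPM. The highest knockdown library was just under the lowest control. The log2 fold change was -1.31 (SE 0.47, 95% interval -2.46 to -0.17) and -1.07 without Ctrl shRNA replicate 2 (interval -2.13 to -0.01), and it did not pass the threshold of edgeR in either fit. At these counts the intervals were the widest of the 10 genes in both fits.

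Ratios of counts within a library do not depend on the scaling between libraries, and these were chosen after the values were seen and carry no test. The ratio of *Trp53* to *Cdkn2a* counts was 0.370, 0.238 and 0.314 in Ctrl shRNA and 0.594, 0.964 and 0.656 in the knockdown, a difference of 1.26 in mean log2 ratio (1.08 without Ctrl shRNA replicate 2). *Mdm2* to *Trp53* was 0.509, 0.461 and 0.465 in Ctrl shRNA against 0.370, 0.334 and 0.383 in the knockdown (log2 difference -0.40, or -0.43 without replicate 2). The corresponding ratio of *Cdkn1a* to *Trp53* was 0.106, 0.0939 and 0.121 against 0.0859, 0.0676 and 0.0852 (log2 difference -0.42, or -0.51). Both ratios were lower in each knockdown library than in each control library. Their denominator, *Trp53*, was itself higher in every knockdown library, while *Mdm2* and *Cdkn1a* had log2 fold changes of 0.16 and 0.12. The lower ratios thus do not show a fall of these p53 targets. *Cdkn2b* to *Cdkn2a* was 0.206, 0.153 and 0.178 against 0.212, 0.252 and 0.220 (log2 difference 0.35, or 0.25), so the gap between the groups was narrow.

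**Figure D3:**
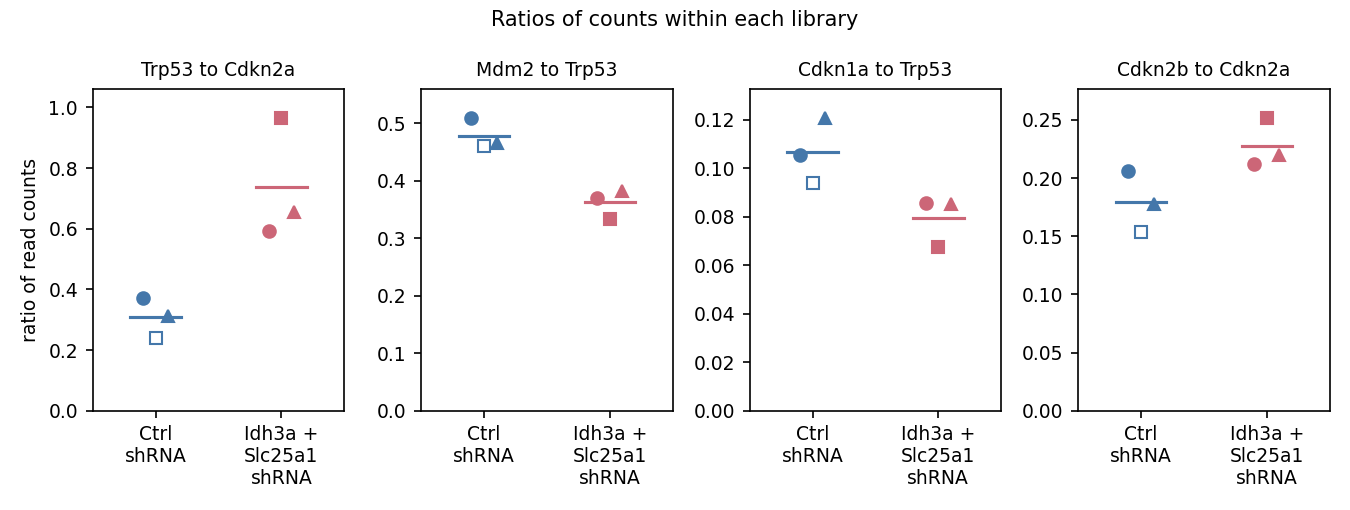
Ratio of read counts of a pair of genes within each library, for 4 pairs (blue, Ctrl shRNA, with replicate 2 as an open square; red, Idh3α shRNA + Slc25a1 shRNA; circle, square and triangle, replicates 1, 2 and 3; lines, group means). *Trp53* to *Cdkn2a* spans 0.238 to 0.370 in Ctrl shRNA and 0.594 to 0.964 in the knockdown. The groups are separate in each of the 4 panels, but the pairs were chosen after the values were seen, so the separation is a description only.

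The wider pathway was read from 9 lists of 107 further genes, of which 105 were tested. With all 6 libraries 1 gene was higher and 0 were lower at an adjusted p under 0.05 by edgeR (0.0653% of all genes passed), and 9 and 12 at an unadjusted p under 0.05 (14.1% of all genes), with a median log2 fold change of -0.01, as over all genes tested. Leaving out Ctrl shRNA replicate 2, 3 genes rose and 6 fell, beside 1.79% of all genes, with a median of -0.05. DESeq2 with all 6 libraries called 3 higher and 4 lower, beside 2.51% of all genes. Limma-voom with sample quality weights called 13 higher and 16 lower, beside 15.0% of all genes. These shares apply to the calls of each tool in the lists below.

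The p53 target genes outside the 10 held genes with values above and below 0. In 3 lists of arrest and repair, cell death, and metabolism and stress targets, 42 of 43 genes were tested, 22 of them had values above 0 on the log2 scale, and their median was 0.01, whereas without Ctrl shRNA replicate 2 the count was 16 and the median -0.06, so the even split rests on that library. *Plk2*, a stress-induced polo-like kinase gene, was at 23.7, 21.6 and 21.6 CPM in Ctrl shRNA and 47.7, 46.6 and 46.3 in the knockdown. The groups lay far apart with little spread, and *Plk2* rose by 1.07 on the log2 scale (edgeR with Benjamini-Hochberg adjustment, adjusted p = 0.0223, or 0.00108 without Ctrl shRNA replicate 2). *Fas*, the death receptor gene, was at 10.1, 27.6 and 11.3 CPM in Ctrl shRNA and 20.5, 16.8 and 18.5 in the knockdown. Its log2 fold change was 0.19 (edgeR adjusted p = 0.821), and without Ctrl shRNA replicate 2, its highest library, it rose by 0.79 (edgeR adjusted p = 0.0198). *Btg2*, an antiproliferative gene, had a log2 fold change of -0.34 (edgeR adjusted p = 0.296) and without that library fell by 0.42 (edgeR adjusted p = 0.0313). DESeq2 with all 6 libraries called *Plk2* higher in the arrest and repair list. In the cell death list it called *Tnfrsf10b* higher (log2 fold change 0.33, DESeq2 adjusted p = 0.0471), beside 2.51% of all genes. Limma-voom with sample quality weights called *Plk2* higher and *Btg2* lower in the first list. In the cell death list it called *Fas*, *Tnfrsf10b*, *Aen* and *Bid* higher and *Perp* lower, beside 15.0% of all genes. In the metabolism and stress list none of 14 genes passed in either fit of edgeR or in DESeq2. In edgeR with all 6 libraries 5 had an unadjusted p under 0.05, beside 14.1% of all genes. Limma-voom with sample quality weights called 2 higher and 4 lower, beside 15.0%. The extremes of the list were *Trp53inp2* (log2 fold change 0.33) and *Tigar* (0.28) at the top and *Sat1* (-1.31) and *Ddit4* (-0.55) at the bottom. Without Ctrl shRNA replicate 2 these were 0.25, 0.22, -0.43 and -0.53, so that *Ddit4* was the lowest. *Sat1* was at 114 CPM in Ctrl shRNA replicate 2 and at 23.0 to 37.4 in the other 5 libraries. Of 14 tested regulators of p53, none passed in either fit of edgeR or in DESeq2. In edgeR with all 6 libraries 0 had an unadjusted p under 0.05, beside 14.1% of all genes. Limma-voom with sample quality weights called *Usp7* and *Atr* higher and *Chek1* lower, beside 15.0%. The extremes were *Atr* (0.22), *Hipk2* (0.22), *Chek1* (-0.52) and *Trp63* (-0.22). Without Ctrl shRNA replicate 2 these were 0.26, 0.04, -0.24 and -0.58, so that *Trp63* was the lowest.

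All 4 of the other CDK inhibitor genes had negative log2 fold changes, with a median of -0.31 (-0.36 without Ctrl shRNA replicate 2), where 7460 of all 15307 genes had positive values. By edgeR none of the 4 passed with all 6 libraries (2 at an unadjusted p under 0.05), and 1 passed without that library, beside 1.79% of all genes. DESeq2 with all 6 called *Cdkn1c* lower, and limma-voom with sample quality weights called *Cdkn1c*, *Cdkn2c* and *Cdkn2d* lower. *Cdkn1c*, the gene of p57KIP2, was at 20.7, 29.6 and 23.6 CPM in Ctrl shRNA and 12.6, 14.6 and 11.3 in the knockdown, with a log2 fold change of -0.94 (edgeR adjusted p = 0.179), and without that library it fell by 0.80 (edgeR adjusted p = 0.0217). *Cdkn2c* (-0.33), *Cdkn2d* (-0.29) and *Cdkn1b* (-0.17) did not pass in either fit of edgeR. In the list of 12 cyclins and CDKs, 6 had positive values and the median was -0.03 (5 and -0.02 without that library). *Cdk6*, the kinase gene whose product the INK4 proteins bind, was at 36.7, 26.2 and 31.3 CPM in Ctrl shRNA and 51.0, 53.6 and 58.8 in the knockdown. Its log2 fold change was 0.79 (edgeR adjusted p = 0.178), and without that library it rose by 0.67 (edgeR adjusted p = 0.0185). DESeq2 with all 6 libraries called *Cdk6* higher (DESeq2 adjusted p = 0.00215), beside 2.51% of all genes. Limma-voom with sample quality weights called *Cdk6* and *Ccnd1* higher (edgeR log2 fold change of *Ccnd1* 0.29), beside 15.0%. No pocket protein or E2F gene passed in either fit of edgeR or in DESeq2 (0 of 10, median 0.02, 2 at an unadjusted p under 0.05 in edgeR with all 6 libraries), whereas limma-voom with sample quality weights called *E2f3* and *E2f4* higher and *E2f1* lower. In edgeR with all 6 libraries the extremes were *E2f3* (0.44) and *E2f4* (0.24) at the top and *Rbl1* (-0.18) and *E2f1* (-0.17) at the bottom. Without that library *E2f3* was at 0.27, *E2f4* at 0.20, *Rbl1* at -0.15 and *E2f1* at -0.22. No proliferation marker passed in either fit of edgeR or in DESeq2, while limma-voom with sample quality weights called *Mcm6* lower. In edgeR with all 6 libraries 0 of the 15 had an unadjusted p under 0.05, and the median was -0.01 (-0.05 without replicate 2), with *Plk1* (0.18) and *Aurkb* (0.08) highest and *Pcna* (-0.85) and *Tyms* (-0.51) lowest. *Pcna* was at 1094 CPM in Ctrl shRNA replicate 2 and 337 to 401.5 in the other 5 libraries, and without that library its log2 fold change was -0.20. *Tyms* was at 207 CPM in that library and 89.4 to 96.0 in the other 5, with a log2 fold change of -0.03 without it. In that fit *Plk1* was at 0.10 and *Aurkb* at 0.05, and the extremes of the list became *Aurka* (0.12) and *Mki67* (-0.28). *Cdk1* and *Ccne2*, named after their values were seen, were likewise at 677 and 157 CPM in that library and at 199 to 265 and 41.7 to 50.6 in the others.

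Of 8 stress genes that share regulators with *Gdf15*, 4 fell without Ctrl shRNA replicate 2, beside 1.79% of all genes in either direction. None passed in edgeR with all 6 libraries. DESeq2 with all 6 libraries called *Chac1*, *Asns* and *Egr1* lower, beside 2.51% of all genes. Limma-voom with sample quality weights called these and *Trib3* lower, beside 15.0%. *Egr1*, an immediate-early transcription factor gene, was at 193, 164 and 166 CPM in Ctrl shRNA and 61.0, 85.9 and 58.6 in the knockdown, a log2 fold change of -1.35 (edgeR adjusted p = 0.104), and fell by 1.40 without that library (edgeR adjusted p = 0.00663). *Chac1*, which encodes a glutathione-degrading enzyme induced by ATF4, fell by 1.00 (edgeR adjusted p = 0.0115) without that library. *Asns*, the asparagine synthetase gene, fell by 0.49 (edgeR adjusted p = 0.0142) and *Trib3*, a pseudokinase gene, fell by 0.65 (edgeR adjusted p = 0.0419) in the same fit. *Atf4* itself had a log2 fold change of -0.16, or -0.09 without that library, and did not pass in either fit of edgeR. The same held for *Ddit3* (-0.44, or -0.16 without that library), *Klf4* (-0.06, or -0.11) and *Atf3* (0.30, or 0.08).

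**Figure D4:**
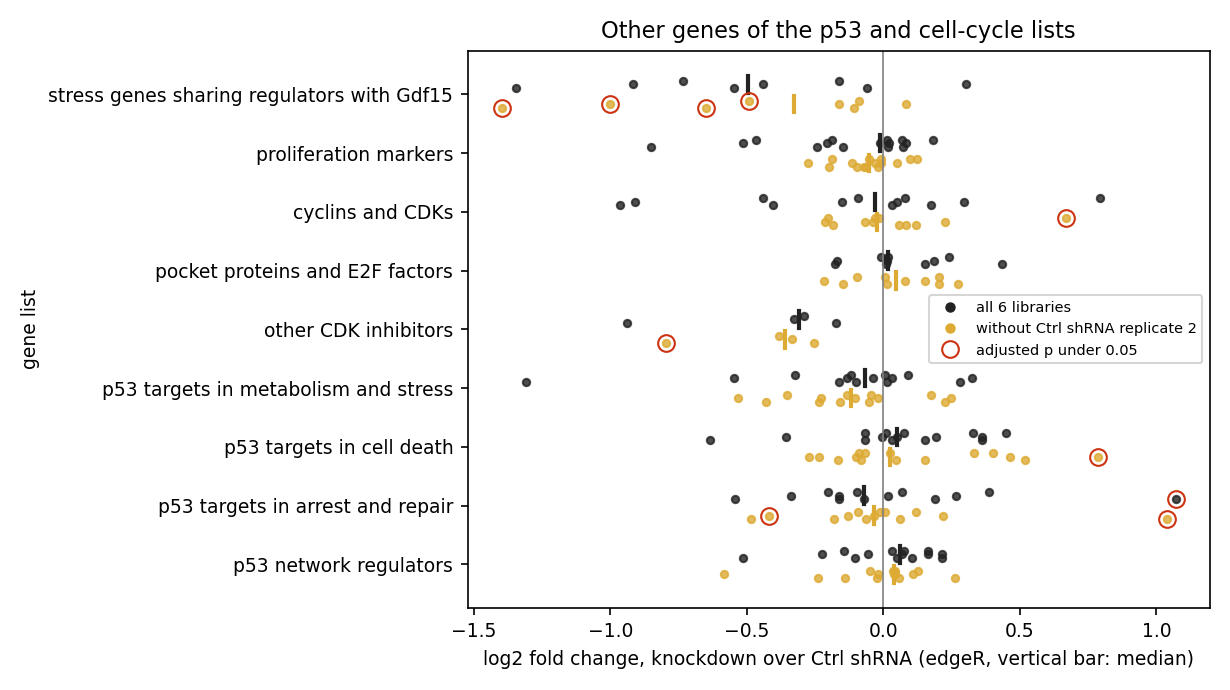
Log2 fold change of each tested gene in 9 lists of the p53 network and the cell cycle, knockdown over Ctrl shRNA, by edgeR with all 6 libraries (black) and without Ctrl shRNA replicate 2 (yellow), with vertical bars at the median of each list and red circles around values with an adjusted p under 0.05. *Plk2* (1.07) is the 1 gene circled with all 6 libraries, and 9 genes are circled without replicate 2.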

How the data were processed

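The 6 RNA-seq libraries of MLE12 cells, 3 per group, were analysed with groups and replicate numbers taken from the sample labels. The authors deposited whole-number read counts per gene for 54532 genes with Ensembl identifiers, and FPKM values, that is, values per length of gene and per depth of library. The submitters' processing notes name HISAT2 2.0.5, StringTie 1.3.3b, featureCounts 1.5.0-p3 and mm10, without their roles, and the strand setting is not given in the sources used here. No per-sample column was left unused (0 columns). All 10 genes have the same coordinates in GENCODE M21 (GRCm38), and coordinates are given on that build.

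In edgeR 4.0.16 (R 4.3.3), low counts were removed by filterByExpr, libraries were scaled by TMM (also for CPM), and the groups were compared by the two-sided quasi-likelihood F-test with no covariate. Genes were called at an adjusted p under 0.05 (Benjamini-Hochberg, 15307 genes). Intervals are 95% intervals of the fit. Fold changes of genes with low counts depend on the prior count. Alternatives were leave-one-out fits of each library, a replicate block, RLE size factors or total counts alone as the scaling, an open count filter or one of 10 counts in all samples, DESeq2 1.42.0 with all libraries or without Ctrl shRNA replicate 2, limma-voom with sample quality weights (limma 3.58.1), and limma on FPKM as log2 with a pseudocount of 1 or of 0.1 (genes at 0.1 or more in 3 samples). The scripts were tested on simulated data. Replicates differed by more than counting noise (chi-square per degree of freedom 6.11 to 496.5), so each library was counted as 1 replicate. Tables, ratios and figures were made with Python 3.11.15.

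The genes, lists and tests were chosen with earlier results of these data known. Named were the 10 genes, the list genes past the adjusted threshold with or without Ctrl shRNA replicate 2, otherwise the 2 highest and 2 lowest of a list, genes that overlap a member or are named as its pseudogene, the 5 genes most like *Cdkn1a*, and *Idh3a* and *Slc25a1*. Other list and marker genes were named after their values were seen. The within-library ratios, and the counts at an unadjusted p and of groups without overlap, were added after seeing the data.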

Additional observations from a re-analysis of the deposited data

How the results depend on the processing

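Over the alternatives, the log2 fold changes of the 10 genes kept their direction except for *Cdkn1a*, which went from 0.121 to -0.022 without Ctrl shRNA replicate 2 in edgeR, to -0.015 in DESeq2 without that library and to -0.077 in limma-voom with sample quality weights, and ranged from -0.022 to 0.273 with each library left out in turn. Of 159 single values under an alternative, 143 had the same direction and call, 13 newly passed the threshold and 3 were these of *Cdkn1a*. *Trp53* ranged from 0.44 to 0.73 and passed under 4 of 16 alternatives, *Trp53inp1* from -0.52 to -0.32 and passed under 4, *Cdkn2a* from -0.82 to -0.49 and passed under 1, and *Cdkn2b* from -0.41 to -0.16 and passed under 2. *Gdf15* ranged from -1.69 to -0.33, *Rb1* from -0.26 to -0.05, *Ccng1* from -0.28 to -0.02, *Sesn1* from -0.29 to -0.01 and *Mdm2* from 0.07 to 0.31. The number of the 10 genes past the adjusted threshold, 0 with all 6 libraries in edgeR, was 2 in DESeq2 (2.51% of all genes called), 3 in DESeq2 without Ctrl shRNA replicate 2 (6.58%, with no adjusted p for *Gdf15*), 6 in limma-voom with sample quality weights (15.0%), and 0 to 2 when each library was left out in turn, the 2 being without Ctrl shRNA replicate 2. The number among the 105 wider genes, 1 in edgeR, was 0 with library size only, 2 without a count filter, 7 in DESeq2, 16 in DESeq2 without Ctrl shRNA replicate 2, 29 in limma-voom with sample quality weights, and 0 to 9 with each library left out, 9 being without Ctrl shRNA replicate 2. The shares of all genes called by each tool, given above, apply here too. The cause of these moves was not tested. With library size only, the median over all genes tested moved from -0.01 to 0.16. Same-numbered samples did not deviate together (correlations of -0.21, -0.16 and 0.02). With 3 libraries per group and Ctrl shRNA replicate 2 apart from the others, such correlations cannot exclude a pairing. With the replicate block 0 of the 10 genes, 0 of the wider genes and 0 of all genes passed. Depth limits *Gdf15*, with 8 to 31 counts per library.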

Other observations

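Genes next to the members were read as a check of shared reads. *Lpar6*, which lies inside *Rb1* on the opposite strand, was at 18.5, 55.7 and 17.0 CPM in Ctrl shRNA and 21.6, 20.1 and 22.7 CPM in the knockdown, so its highest value was in Ctrl shRNA replicate 2, where *Rb1* was 54.2 CPM beside 52.2 and 53.5 CPM in the other controls. *Rcbtb2*, at the other overlap with *Rb1*, was at 19.0 to 21.9 CPM in all libraries, with a log2 fold change of -0.04. *Wrap53*, which lies 103 bases from *Trp53* on the opposite strand, was at 19.6 to 21.3 CPM in Ctrl shRNA and 20.3 to 23.8 CPM in the knockdown, and the ratio of *Trp53* to *Wrap53* counts was 6.67, 6.69 and 7.45 against 9.11, 10.03 and 9.37. The pseudogene *Trp53-ps* was at 0.824 to 2.35 CPM in all libraries. The gene AC167363.2, which shares 273 exonic bases with *Cdkn1a*, had 0 to 11 counts. *Gm17233* and *Mir687* inside *Rb1* (0 to 2 counts each) and *9930024M15Rik* inside the span of *Sesn1* (0 to 11 counts) share no exonic base with the member.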
